A study of Mus musculus with 30 samples.

Results

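In this study of mouse osteoclasts, 6 genes for inhibitors of cyclin-dependent kinases (CDKs) and 2 genes used as senescence markers were followed across the cultures. They are Cdkn2a, Cdkn2b, Cdkn2c, Cdkn2d, Cdkn1b, Cdkn1c, Lmnb1 and Glb1, 8 of the 45706 genes in the tables. They were chosen by name, with earlier results of these data known, and every one was found and passed the filter on low levels.

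The study sequenced polyadenylated RNA of osteoclasts grown on bone slices, and its design asks whether expression differs with the age of the mouse or with loss of Terc, the RNA template of telomerase. All cultures began as bone marrow-derived macrophages of C57BL/6J mice, either wild type or Terc-/-, and all received M-CSF (25 ng/ml) together with RANKL (100 ng/ml), the cytokines that drive macrophages to become osteoclasts. Wild-type cultures from mice of 6 and 20 months were taken after 2 days. Wild-type cultures from 1, 6 and 20 months and Terc-/- cultures from 1 and 6 months were taken once big multinucleated cells had appeared (large-cell cultures). Another 3 large-cell groups carry an extra word in their titles whose meaning is not stated: gaiwei (1-month wild type) and 519 (1-month and 6-month Terc-/-). They are called marked here. Each of the 10 groups had 3 libraries. The labels do not say how many generations the Terc-/- mice had been bred or whether the 3 libraries of a group were separate animals or cultures, so p-values measure the spread between these libraries, which may be technical.

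CDK inhibitors hold back the cell cycle. The Ink4 proteins (from Cdkn2a, Cdkn2b, Cdkn2c and Cdkn2d) bind CDK4 and CDK6 and keep them from the D cyclins, whereas the Kip proteins p27 (Cdkn1b) and p57 (Cdkn1c) also act on the CDKs of cyclins E and A. Macrophage precursors leave the cell cycle as they fuse into osteoclasts, and rising Cdkn2a with falling Lmnb1 and high lysosomal beta-galactosidase activity are widely used signs of senescent cells.

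Cdkn2a lies at chr4:89274471-89294653 on the minus strand of GRCm38, beside Cdkn2b at chr4:89306299-89311039 on the same strand. It makes transcripts for unrelated proteins, p16Ink4a and p19Arf, which start at separate first exons of 207 bases (Cdkn2a-201) and 320 bases (Cdkn2a-202) and share 575 of the 1172 bases of both together, or 49.1%. A gene-level value cannot tell them apart, so every Cdkn2a value here is for both. The start regions of Cdkn2a and Cdkn2b are shown because these neighbours were the pair of Ink4 genes called higher in large-cell cultures at both ages. They are RefSeq sequences of GRCm38.p6 on the minus strand, from 250 bases before to 50 after the start, at chr4:89294570-89294869 (Cdkn2a distal start, p19Arf), chr4:89282143-89282442 (Cdkn2a proximal start, p16Ink4a) and chr4:89310983-89311282 (Cdkn2b). Capitals mark a match to TTTCCCGC, a word bound by E2F factors.
Cdkn2a distal: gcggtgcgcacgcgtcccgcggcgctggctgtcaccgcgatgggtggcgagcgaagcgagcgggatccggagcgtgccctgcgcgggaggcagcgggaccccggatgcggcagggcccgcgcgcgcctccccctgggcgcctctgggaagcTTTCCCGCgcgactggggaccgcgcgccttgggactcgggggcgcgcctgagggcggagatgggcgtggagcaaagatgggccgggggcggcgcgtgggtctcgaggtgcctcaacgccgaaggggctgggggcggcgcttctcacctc
Cdkn2a proximal: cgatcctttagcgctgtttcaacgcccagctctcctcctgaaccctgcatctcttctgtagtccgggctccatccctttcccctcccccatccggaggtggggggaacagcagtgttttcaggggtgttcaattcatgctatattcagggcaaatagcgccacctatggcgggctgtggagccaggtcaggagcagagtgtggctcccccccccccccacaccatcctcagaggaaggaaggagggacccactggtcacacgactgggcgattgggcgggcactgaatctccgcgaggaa
Cdkn2b: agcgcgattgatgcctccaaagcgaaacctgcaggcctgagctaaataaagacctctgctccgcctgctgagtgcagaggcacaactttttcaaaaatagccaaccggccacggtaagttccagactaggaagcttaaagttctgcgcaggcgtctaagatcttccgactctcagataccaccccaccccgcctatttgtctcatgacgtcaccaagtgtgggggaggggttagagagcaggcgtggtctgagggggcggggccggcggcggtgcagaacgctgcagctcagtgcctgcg

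Promoters of 6 of the 8 genes were in the table used. Of the E2F words TTTGGCGC, TTTCCCGC, TTTCGCGC and TTTGCCGC, searched on both strands, the distal Cdkn2a region held 1 match, at -99 from the start, and no other region of the 6 genes held any. Of 32851 promoters of the same length 2.26% held at least 1 of these words. The distal region held 45 CpG dinucleotides, the proximal Cdkn2a region 12 and the Cdkn2b region 18, against a median of 7 over all promoters. These matches describe the letters only.

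Of the other genes, Cdkn2c lies at chr4:109660876-109667189 and Cdkn2d at chr9:21288410-21291407, both on the minus strand. Cdkn1b lies at chr6:134920401-134925513 on the plus strand and Cdkn1c at chr7:143458339-143461050 on the minus strand, where the annotated antisense gene Gm44732 overlaps it. Glb1 lies at chr9:114401076-114474898 on the plus strand and overlaps Tmppe on the same strand, which read 5.84 to 12.6 TPM. No source used here says whether counting used the strand, so the Cdkn1c value may include reads of its antisense neighbour. The longest exact run shared by transcripts of any pair of the 6 inhibitor genes was 23 bases, between Cdkn2a and Cdkn2b.

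Levels are in TPM (a transcript's share of its library, corrected for length), and read depth was not known. Terc was at 0 in the 12 libraries of Terc-/- cells, yet 15 of the 18 wild-type libraries had 0 as well, so it could not check the genotype labels. Xist, expressed in female cells, ranged from 46.6 to 84.1 TPM across wild-type large cells of 1 month without an extra word, and no other library exceeded 0.254 TPM. Each comparison with that group therefore also sets female-pattern against male-pattern libraries. That pattern cannot be told apart from age, genotype or title word there. Among the wild-type large cells of 6 months, replicate 2 was unlike the others: its mean correlation with its own group was 0.910, and mt-Co1 read 2390 TPM there against 22500 and 20000. For the 8 genes, the differences resting on that group are therefore also given without it where that moved them. Differences and list counts of other genes are given with it only, although some of their levels stood apart there. Lmna, for example, read 561.0 TPM in replicate 2 against 291.0 and 295.0 TPM. The sum over 10 osteoclast genes, among them Acp5 and Ctsk, was 4630 to 28100 TPM in unmarked large-cell libraries, but 350.0 to 797.0 TPM at 2 days and 659.0 to 2160 TPM in the marked libraries, although the labels call all of them osteoclasts.

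**Figure D1:**
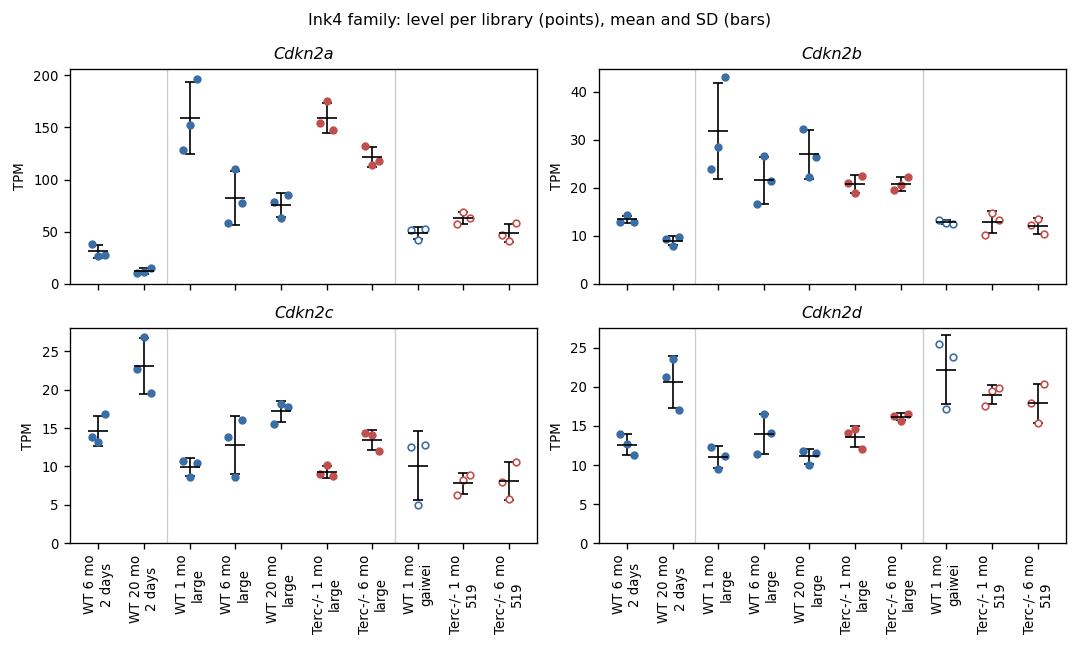
Levels of the 4 Ink4 genes (vertical axes, TPM) in the 10 groups (horizontal axes). Points are libraries, bars the mean and SD of 3, blue is wild type, red Terc-/- and open points are marked libraries; Cdkn2a reaches 197.0 TPM in 1-month wild-type large cells and stays at or under 38.5 TPM at 2 days.

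The first comparison asks what changes between 2 days and the large-cell stage. Cdkn2a, Cdkn2b, Cdkn1c and Glb1 rose at both ages, whereas Lmnb1 and Cdkn2d fell only in the test at 20 months. At 6 months 4 of the 8 genes rose and 0 fell, where 49.8% of all 12614 genes tested were called. At 20 months 5 rose and 2 fell, where 36.2% of all genes were called. The median difference of the 8 genes was 0.74 at 6 months and 0.51 at 20 months on the log2 scale, against -0.02 and 0.0 over all genes. In bulk RNA, fewer cells of a type and less RNA per cell cannot be told apart. Differences are log2(scaled TPM + 1) ± standard error from limma with 3 libraries a group, adjusted over all genes tested by Benjamini-Hochberg and called under 0.05. The TPM given are before scaling between libraries and the differences after it, so small ones can differ in sign. Whether groups overlap is told from the TPM before scaling and is a description. The share of all genes whose groups do not overlap was not computed.

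Cdkn2a had the largest log2 difference of the 8 genes at 20 months. At 6 months it read 38.5, 26.7 and 27.5 TPM after 2 days and 58.5, 110.0 and 77.8 TPM in large cells. At 20 months it read 9.77, 10.9 and 15 TPM after 2 days and 78.8, 62.9 and 85.5 TPM in large cells. The stages did not overlap at either age. The difference was 1.73 ± 0.26 at 6 months (3.33-fold, adjusted p = 9.57e-06) and 2.68 ± 0.26 at 20 months (6.4-fold, adjusted p = 1.55e-08). Without replicate 2 of the 6-month large cells, which holds the 110.0 TPM, the 6-month difference was 1.29 (adjusted p = 2.19e-05).

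Cdkn2b, whose product p15Ink4b is induced by TGF-beta in many cells, followed at lower levels. It read 12.9, 14.2 and 12.9 TPM after 2 days at 6 months and 16.6, 26.5 and 21.4 TPM in large cells. At 20 months it read 9.24, 7.86 and 9.77 TPM after 2 days and 32.2, 22.2 and 26.3 TPM in large cells. Again the stages did not overlap. The differences were 0.99 ± 0.23 (1.99-fold, adjusted p = 0.00101) and 1.57 ± 0.23 (2.97-fold, adjusted p = 6.11e-06). The 6-month value was 0.63 without replicate 2 (adjusted p = 0.00993), and in a fit of only the groups compared it was not called (adjusted p = 0.103).

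Cdkn2c and Cdkn2d, which encode p18Ink4c and p19Ink4d, did not follow these neighbours. Cdkn2c read 13.2 to 16.8 TPM after 2 days and 8.64 to 16.1 TPM in large cells at 6 months, and 19.6 to 26.9 and 15.6 to 18.2 TPM at 20 months. Its differences were 0.16 ± 0.23 (adjusted p = 0.582, and 0.20 without replicate 2) and -0.28 ± 0.23 (adjusted p = 0.382). Cdkn2d at 20 months read 21.3, 23.6 and 17.0 TPM after 2 days and 11.8, 9.99 and 11.6 TPM in large cells, without overlap. It fell, at -0.70 ± 0.21 (adjusted p = 0.0112), a call lost without replicate 3 of the 20-month 2-day cultures (-0.61, adjusted p = 0.0551). At 6 months it read 14.0, 12.7 and 11.3 TPM and then 11.4, 16.5 and 14.1 TPM, with a difference of 0.50 ± 0.21 (adjusted p = 0.0542). That difference was 0.18 without large-cell replicate 2 and 0.78 without large-cell replicate 1 (adjusted p = 0.0022), so a single library decides its size.

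Cdkn1b, for p27, and Cdkn1c, for p57, stood far apart in level, with means over the 30 libraries of 18.9 and 2.34 TPM. Cdkn1b rose at 20 months from 24.8, 25.7 and 26.5 to 34.0, 33.6 and 31.1 TPM, by 0.46 ± 0.12 (adjusted p = 0.00265), but on the values as deposited this was not called (adjusted p = 0.132). At 6 months it read 17.9 to 21.1 TPM after 2 days and 11.1 to 20.3 TPM in large cells, a difference of 0.13 ± 0.12 (adjusted p = 0.36, and 0.19 without replicate 2). Cdkn1c rose at 6 months from 1.34, 0.835 and 1.4 to 3.74, 5.78 and 5.02 TPM, by 1.64 ± 0.19 (3.12-fold, adjusted p = 3.57e-07), and by 1.35 without replicate 2 (adjusted p = 9.84e-07). At 20 months it went from 0.867, 1.07 and 0.633 to 1.79, 1.71 and 1.62 TPM, a difference of 0.56 ± 0.19 (adjusted p = 0.0234). That call was lost without any one of 4 libraries, 2-day replicates 2 and 4 and large-cell replicates 1 and 3 (adjusted p 0.0519 to 0.0893). At levels this low the added pseudocount of 1 TPM understates the fold. Cdkn1c passed the filter on mean level through the unmarked large-cell groups, as its means in the other groups were 0.102 to 1.19 TPM. Its differences between those groups and the 2-day or marked ones are thus of a gene kept through its higher groups.

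Lmnb1, for lamin B1 of the nuclear envelope, fell at 20 months, each large-cell library lying below each 2-day library. It read 40.1, 50.1 and 36.8 TPM after 2 days and 10.7, 7.62 and 11.2 TPM in large cells, a difference of -1.86 ± 0.17 (adjusted p = 1.25e-08). At 6 months it read 23.9, 26.5 and 25.0 TPM and then 28.5, 10.3 and 24.0 TPM. The 10.3 TPM is replicate 2; the difference was 0.00 ± 0.17 with it and 0.23 without it (adjusted p = 0.988 and 0.283). Glb1, for lysosomal beta-galactosidase, rose at both ages without overlap. It went from 61.0, 61.6 and 64.2 to 131.0, 77.2 and 114.0 TPM at 6 months and from 69.6, 74.0 and 65.6 to 157.0, 174.0 and 155.0 TPM at 20 months. The differences were 1.13 ± 0.10 (2.19-fold, adjusted p = 3.47e-09) and 1.33 ± 0.10 (2.51-fold, adjusted p = 2.66e-10), and 1.14 at 6 months without replicate 2.

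**Figure D2:**
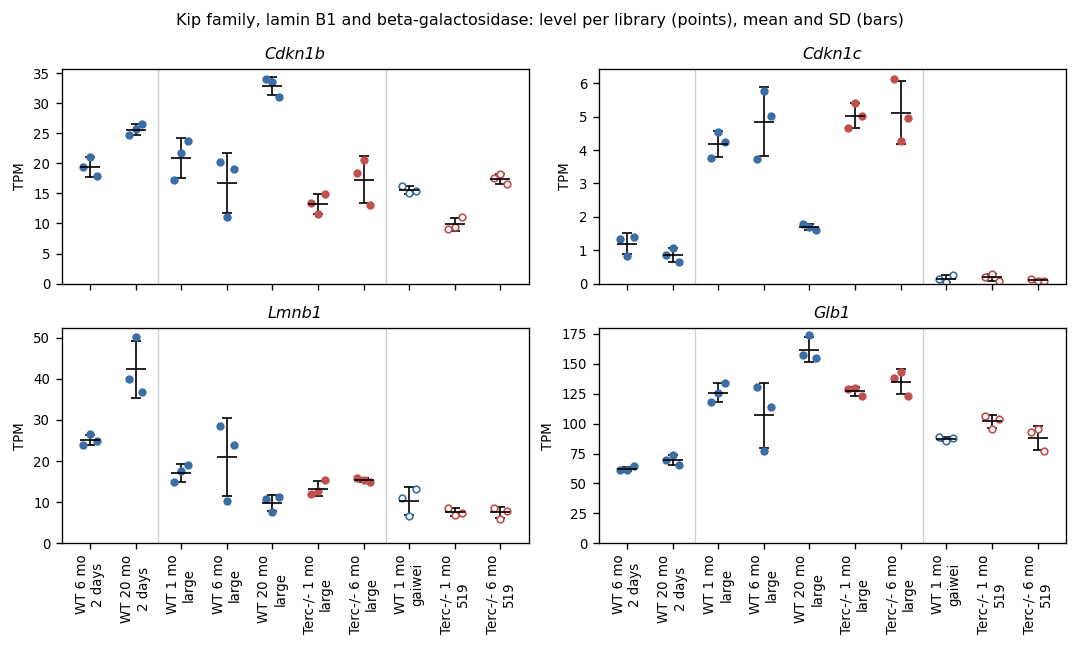
Levels of the Kip genes Cdkn1b and Cdkn1c, of Lmnb1 and of Glb1 (vertical axes, TPM) in the 10 groups (horizontal axes), drawn as for the Ink4 genes: points are libraries, bars mean and SD of 3, blue wild type, red Terc-/-, open points marked. Cdkn1c lies at or under 0.283 TPM in every marked library, and Lmnb1 is highest in the 20-month 2-day cultures, at 36.8 to 50.1 TPM.

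The difference between the ages was tested directly, where 25.0% of all genes were called. Lmnb1 (-1.87 ± 0.25, adjusted p = 9.59e-06), Cdkn2d (-1.20 ± 0.30, adjusted p = 0.00505) and Cdkn1c (-1.08 ± 0.27, adjusted p = 0.00505) changed less upward, or more downward, at 20 than at 6 months. Without 6-month large-cell replicate 2 these were -2.09, -0.88 and -0.78, all still called. The Cdkn1c difference was not called with a pseudocount of 0.1 (-1.27, adjusted p = 0.0672) or in a fit of only the groups compared (adjusted p = 0.0577). Cdkn2a had a difference of 0.94 ± 0.36 (adjusted p = 0.0575) with that library and 1.39 without it (adjusted p = 0.000534). Cdkn2b had 0.58 ± 0.32 (adjusted p = 0.185) with it and 0.94 without it (adjusted p = 0.0082). The Cdkn2a difference was also called without replicate 4 of the 20-month 2-day cultures (1.12, adjusted p = 0.0364). With all libraries, both were called on the values as deposited, Cdkn2a at 1.23 (adjusted p = 0.00322) and Cdkn2b at 0.85 (adjusted p = 0.0216). A pseudocount of 0.1 also gave a call for Cdkn2a (1.02, adjusted p = 0.046).

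Genes around these inhibitors were taken from named lists. Of the 7 genes of cyclins E, A and B and their CDKs, 3 fell and 0 rose at 6 months and 7 fell at 20 months, among them Ccnb1 at -2.94 and Ccna2 at -2.76 at 20 months. Of 20 proliferation markers, 2 rose and 5 fell at 6 months and 20 fell at 20 months (median -0.12 and -2.23, against -0.02 and 0.0 over all genes). Of the 5 genes of D cyclins, Cdk4 and Cdk6, the partners of Ink4 proteins, 1 rose and 1 fell at each age. They were Cdk6 (0.66) and Ccnd2 (-1.14) at 6 months, and Ccnd2 (0.91) and Ccnd1 (-1.62) at 20 months. Of 8 E2F genes 1 rose and 4 fell at 6 months and 7 fell at 20 months. Of the 3 pocket protein genes 1 fell at 6 months and 2 fell at 20 months, Rb1 at both (-0.43 and -0.51).

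The lists tied to single members moved as follows. Of 9 Polycomb genes known to silence the Ink4 locus, 2 rose and 4 fell at 6 months and 2 rose and 2 fell at 20 months. Ezh2, the histone H3 methyltransferase, fell at both ages, at -0.70 and -1.74. Of 8 genes for the turnover of p27, 1 rose and 1 fell at 6 months and 1 rose and 4 fell at 20 months, with Skp2 at -0.38 and -0.84. Among 11 other nuclear lamina genes 1 rose and 4 fell at 6 months and 2 rose and 3 fell at 20 months, with Lmnb2 at 0.01 (not called) and -0.71 and Lmna at 0.98 and 0.04 (not called). Of 16 lysosomal glycosidase genes 14 rose at 6 months and 8 at 20 months, and 0 fell, Hexa by 1.95 and 1.57. Of 20 secreted factors reported in senescent cells, 2 rose and 9 fell at 6 months and 2 rose and 10 fell at 20 months. Il1a fell at both ages, at -2.64 and -3.13, whereas Mmp9, also an osteoclast gene, rose by 2.88 and 3.54. All 10 osteoclast genes rose at both ages. B cell markers were at 85.0 to 109.0 TPM in sum in the 20-month 2-day libraries against 3.3 to 9.58 TPM in the large cells of that age. Their part in the 20-month differences was not tested.

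**Figure D3:**
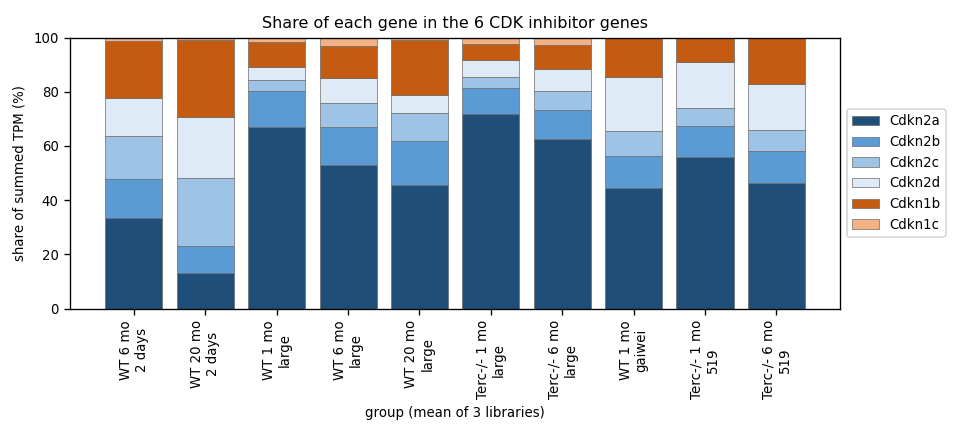
Mean share (vertical axis, percent) of each of the 6 CDK inhibitor genes in their summed TPM in each group (horizontal axis, mean of 3 libraries). Cdkn2a holds 13.1% to 33.3% at 2 days and 45.6% to 71.9% in unmarked large-cell groups.

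The summed level of the 6 inhibitor genes was 92.1 ± 6.74 TPM (SD, n = 3) at 6 months and 91.0 ± 4.28 TPM at 20 months after 2 days. In unmarked large-cell groups the means lay between 152.0 and 236.0 TPM, and in marked groups between 104.0 and 113.0 TPM. Cdkn2a was the largest share in every group but the 20-month 2-day cultures, where Cdkn1b held 28.2%, Cdkn2c 25.3%, Cdkn2d 22.6% and Cdkn2a 13.1%. In 1-month Terc-/- large cells, by contrast, Cdkn2a held 71.9% and Cdkn1b 6.06%.

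The second comparison asks what differs with the age of wild-type mice. After 2 days Cdkn2a was lower and Cdkn2d, Cdkn1b and Lmnb1 higher in 20-month than in 6-month cultures. That made 3 genes up and 1 down of 8, where 17.3% of all genes were called. Cdkn2a differed by -1.31 ± 0.26 (0.403-fold, adjusted p = 0.000973). Lmnb1 differed by 0.69 ± 0.17 (adjusted p = 0.0075), Cdkn2d by 0.63 ± 0.21 (adjusted p = 0.0429) and Cdkn1b by 0.36 ± 0.12 (adjusted p = 0.0328), and none of these groups overlapped. Cdkn2b (-0.54 ± 0.23, adjusted p = 0.108) and Cdkn2c (0.60 ± 0.23, adjusted p = 0.0818) did not overlap either and were called in a fit of these groups alone (adjusted p = 0.00604 and 0.00872). Cdkn1c (-0.22 ± 0.19) and Glb1 (0.14 ± 0.10) were not called, although the groups did not overlap for Glb1. On the values as deposited only Cdkn2a and Cdkn2d were called. Lmnb1 was not called without 20-month replicate 3 (0.58, adjusted p = 0.0587). Cdkn2d was not called without any one of 20-month replicates 2 and 3 and 6-month replicates 1, 2 and 3 (adjusted p 0.0637 to 0.17). Cdkn1b was not called without any one of 20-month replicates 2, 3 and 4 and 6-month replicates 1 and 3 (adjusted p 0.0566 to 0.134). Proliferation markers were called higher at 20 months in 11 of 20 cases and lower in 0 (median 0.49, against 0.01 over all genes), and the B cell markers given above were at 2.7 to 6.6 TPM in the 6-month 2-day libraries. Their part was not tested.

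In large cells Cdkn2a was highest at 1 month. The 1-month libraries read 128.0, 152.0 and 197.0 TPM, above every library of the 6-month and 20-month groups. Between 6 months and 1 month 1 gene of 8 was called, lower, where 9.58% of all genes were called. This was Cdkn2a, at -0.81 ± 0.26 (adjusted p = 0.047), and it was -1.25 without 6-month replicate 2 (adjusted p = 0.000328), when Cdkn2b was called too (-0.72, adjusted p = 0.0224). The call did not hold in a fit of only these groups, with replicate 2 (adjusted p = 0.845) or without it (adjusted p = 0.169). It was lost without any one of 1-month replicates 1, 3 and 4 and 6-month replicates 1 and 4 (adjusted p 0.0519 to 0.164). Without 6-month replicate 1, Cdkn2d (0.76, adjusted p = 0.00795) and Cdkn1c (0.58, adjusted p = 0.0148) were called instead. In the fit with all libraries the other differences were -0.36 for Cdkn2b, 0.45 for Cdkn2c, 0.47 for Cdkn2d, -0.18 for Cdkn1b, 0.31 for Cdkn1c, 0.32 for Lmnb1 and -0.10 for Glb1, none called. Without replicate 2 those of Cdkn2d, Cdkn1c and Lmnb1 were 0.15, 0.01 and 0.54, not called.

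Between 20 months and 1 month 1 gene was higher and 3 were lower, where 22.2% of all genes were called. Cdkn2a was lower by -1.17 ± 0.26 (0.443-fold, adjusted p = 0.00161). Cdkn1c had read 3.75, 4.55 and 4.25 TPM at 1 month and differed by -0.99 ± 0.19 (adjusted p = 0.000483). Lmnb1 had read 14.8, 17.5 and 19 TPM and differed by -0.86 ± 0.17 (adjusted p = 0.000835). Cdkn1b was higher, from 17.2, 21.7 and 23.8 TPM, by 0.51 ± 0.12 (adjusted p = 0.00218). The groups did not overlap for any of the 4 genes, nor for Cdkn2c and Glb1, which were not called in the fit of all scaled libraries. The 4 calls held without each library in turn. Cdkn2b had read 23.8, 28.4 and 43.0 TPM at 1 month and differed by -0.33 ± 0.23 (adjusted p = 0.328). Without 1-month replicate 1, Cdkn2c (0.77, adjusted p = 0.0399) and Glb1 (0.31, adjusted p = 0.0405) were called as well. Both were also called on the values as deposited (0.74 and 0.36, adjusted p = 0.0432 and 0.049). Cdkn2c was called with a block for the replicate number too (0.61, adjusted p = 0.0472). The 1-month libraries are those with the female pattern of Xist.

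Between 20 and 6 months 2 genes were higher and 3 lower, where 27.6% of all genes were called. Cdkn1b (0.69 ± 0.12, adjusted p = 0.00016) and Glb1 (0.33 ± 0.10, adjusted p = 0.0143) were higher. Cdkn1c (-1.30 ± 0.19, adjusted p = 3.8e-05), Lmnb1 (-1.18 ± 0.17, adjusted p = 4.46e-05) and Cdkn2d (-0.57 ± 0.21, adjusted p = 0.0465) were lower. Without 6-month replicate 2 the first 4 were 0.64, 0.33, -1.0 and -1.4 and still called, whereas Cdkn2d was -0.25 (adjusted p = 0.396). Lmnb1 overlapped between these groups only through replicate 2. None of these 5 calls held in a fit of these groups alone with replicate 2 (adjusted p 0.0944 to 0.382). In that fit without it 3 were called, Cdkn1b (adjusted p = 0.0242), Cdkn1c (adjusted p = 0.0325) and Lmnb1 (adjusted p = 0.00686). Cdkn2d was also lost without 20-month replicate 1, 3 or 4 or 6-month replicate 4 (lowest adjusted p 0.058), and Glb1 without 20-month replicate 3 (0.27, adjusted p = 0.0797). Cdkn2a differed by -0.37 ± 0.26 (adjusted p = 0.269), by 0.08 without replicate 2 and by -0.75 without replicate 1 (adjusted p = 0.0105), so its direction rests on single libraries. Cdkn2b differed by 0.04 ± 0.23 and by 0.40 without replicate 2, and Cdkn2c by 0.16 ± 0.23 and by 0.12, none called.

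Proliferation markers were lower in 20-month large cells, 18 of 20 against 1 month and 19 of 20 against 6 months, with medians of -1.16 and -1.61 against -0.01 and 0.02 over all genes. Their summed level was 299.0 to 359.0 TPM at 20 months, 546.0 to 891.0 TPM at 6 months and 687.0 to 713.0 TPM at 1 month. Of the 7 genes of cyclins E, A and B and their CDKs, 4 were lower against 1 month and 5 against 6 months. Among the p27 turnover genes 5 of 8 were lower and 0 higher against 1 month, and 6 lower and 1 higher against 6 months. A link to the level of Cdkn1b was not tested. Skp2, which marks p27 for degradation, was lower against 1 month, at -0.42. Before scaling it read 4.48, 4.74 and 5.15 TPM at 20 months and 6.13, 2.52 and 6.47 TPM at 6 months. Secreted factors of senescent cells were called higher in 2 and lower in 8 of 20 against 1 month, and 1 and 7 against 6 months. Stromal markers were at 3460 to 4390 TPM in sum at 20 months, against 668.0 to 1170 TPM at 6 months and 589.0 to 2680 TPM at 1 month. Bglap was at 0 in all 3 groups, Alpl at 1 month and Lum at 20 months, and the part of stromal cells in these differences was not tested.

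**Figure D4:**
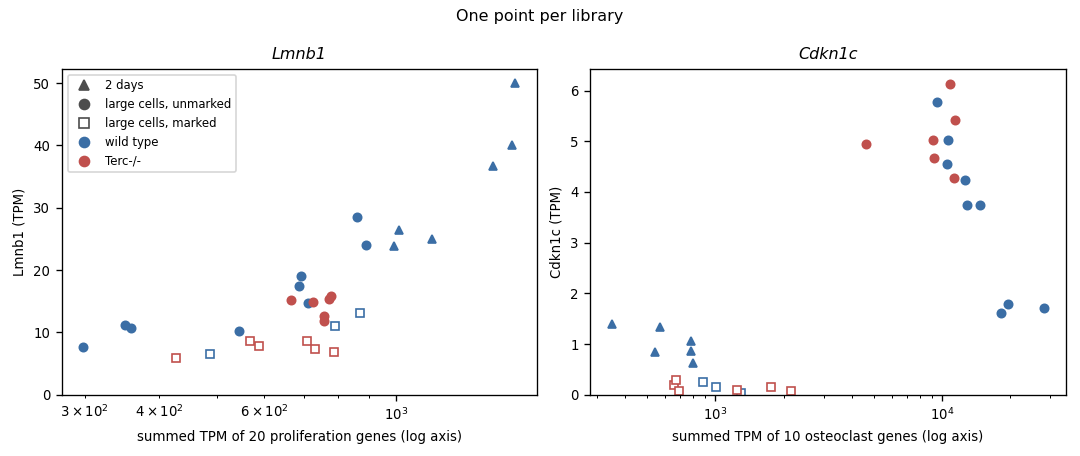
Left, Lmnb1 (TPM) against the summed TPM of 20 proliferation genes; right, Cdkn1c (TPM) against the summed TPM of 10 osteoclast genes; horizontal axes are log axes. Each point is a library (blue wild type, red Terc-/-), triangles 2-day cultures, circles unmarked and open squares marked large-cell cultures; Lmnb1 spans 5.93 to 50.1 TPM, and the 20-month large cells have both low Lmnb1, at most 11.2 TPM, and a proliferation sum of at most 359.0 TPM.

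The third comparison asks what differs in Terc-/- cells. At 1 month Cdkn1b was lower in Terc-/- than in wild-type large cells, and it was the 1 gene of 8 called, where 30.9% of all genes were called. At 6 months 0 of 8 were called by limma, where 28.8% of all genes were called, and 2 had an unadjusted p under 0.05. Cdkn1b at 1 month read 13.4, 11.5 and 14.9 TPM in Terc-/- cells, below every wild-type library. It differed by -0.58 ± 0.12 (0.669-fold, adjusted p = 0.000489), and the call held without each library in turn. At 6 months Cdkn1b read 18.4, 20.5 and 13.0 TPM and differed by -0.06 ± 0.12 (95% interval -0.30 to 0.18, adjusted p = 0.737), and by -0.12 without wild-type replicate 2. The direct test of the difference between the ages gave 0.52 ± 0.16 (adjusted p = 0.0755) for Cdkn1b, where 3.58% of all genes and 0 of the 8 genes were called by limma and 1 had an unadjusted p under 0.05. It was called without replicate 4 of the 6-month wild type (0.58, adjusted p = 0.0455) or of the 6-month Terc-/- cells (0.67, adjusted p = 0.015).

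Cdkn2a was not called different between genotypes at either age. In Terc-/- large cells it read 154.0, 175.0 and 148.0 TPM at 1 month and 132.0, 114.0 and 118.0 TPM at 6 months. Against wild type it differed by 0.05 ± 0.26 at 1 month (95% interval -0.47 to 0.58, adjusted p = 0.90). At 6 months the difference was 0.48 ± 0.26 (95% interval -0.05 to 1.0, adjusted p = 0.166), although no Terc-/- library overlapped the wild type. Without wild-type replicate 2 it was 0.92 (adjusted p = 0.00136 over all groups, 0.0529 in a fit of these groups alone). On the values as deposited it was 0.61 and called (adjusted p = 0.0283).

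Cdkn2b was lower in each 1-month Terc-/- library, at 20.9, 18.8 and 22.5 TPM, than in any wild-type one, but the difference of -0.52 ± 0.23 was not called (adjusted p = 0.0835). On the values as deposited it was -0.55 and called (adjusted p = 0.0283). At 6 months it read 19.4, 20.6 and 22.2 TPM (-0.16 ± 0.23, adjusted p = 0.637), and its direction turned to 0.21 without wild-type replicate 2 (adjusted p = 0.433). The ratio of Cdkn2a to Cdkn2b was looked at after these values were seen. It was 6.55 to 9.32 in 1-month Terc-/- against 4.57 to 5.36 in wild-type libraries, 5.32 to 6.82 against 3.52 to 4.13 at 6 months, and 4.65 to 5.62 against 3.36 to 4.22 in the marked 1-month groups. Genotypes did not overlap in any of the 3 sets, which is a description with no test.

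Cdkn2c read 8.79 to 10.2 TPM at 1 month and 12 to 14.3 TPM at 6 months in Terc-/- cells, with differences from wild type of -0.05 ± 0.23 and -0.02 ± 0.23. Cdkn2d read 12 to 14.6 and 15.6 to 16.5 TPM (0.31 ± 0.21 and 0.08 ± 0.21), and Cdkn1c 4.66 to 5.41 and 4.27 to 6.13 TPM (0.25 ± 0.19 and -0.05 ± 0.19). None of these 6 differences was called. Without wild-type replicate 2 the 6-month ones were -0.06, 0.40 and 0.25, also not called, so that of Cdkn1c turned its direction. Lmnb1 read 11.9, 12.6 and 15.4 TPM at 1 month and 15.8, 15.3 and 14.8 TPM at 6 months. It differed by -0.31 ± 0.17 (adjusted p = 0.189) and -0.43 ± 0.17 (adjusted p = 0.0667). Without wild-type replicate 2 the 6-month difference was -0.65 and called (adjusted p = 0.00414 over all groups, 0.0317 in a fit of these groups alone). Glb1 read 129.0, 130.0 and 123.0 TPM and then 138.0, 143.0 and 123.0 TPM, with differences of 0.05 ± 0.10 (adjusted p = 0.735) and 0.23 ± 0.10 (adjusted p = 0.0821). The 6-month difference was called on the values as deposited (0.35, adjusted p = 0.0426).

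Lysosomal glycosidases other than Glb1 were higher in Terc-/- cells in 8 of 16 cases at 1 month and 10 of 16 at 6 months, and lower in 0, with medians of 0.37 and 0.57 against 0.0 and 0.02 over all genes. Ctsa, the protective protein that binds beta-galactosidase, was higher by 0.85 and 0.65. Among D cyclin and CDK genes Ccnd2 was lower, at -1.91 and -1.0, and Ccnd3 was higher by 0.40 and 0.52. Of the lamina genes 3 were higher and 1 lower at 1 month and 2 higher and 0 lower at 6 months, with Lmna at 0.98 and 0.32 (not called at 6 months). Secreted factors of senescent cells were higher in 3 and lower in 7 of 20 cases at 1 month, but higher in 12 and lower in 4 at 6 months. The direct test of that change called 7 of 20 upward and 0 downward. The neighbour of the Ink4 genes that was tested, Mtap, was lower in Terc-/- cells, at -0.88 and -0.52. Of the 8 stromal markers tested 5 were lower and 1 higher in Terc-/- cells at each age, and their part in these differences was not tested.

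Between Terc-/- ages without the extra word, 0 of 8 genes were called by limma, where 3.98% of all genes were called, and 2 had an unadjusted p under 0.05. They were Cdkn1b (0.34 ± 0.12, adjusted p = 0.113) and Cdkn2c (0.48 ± 0.23, adjusted p = 0.357). Without 6-month replicate 4, Cdkn1b was called (0.49, adjusted p = 0.0211).

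**Figure D5:**
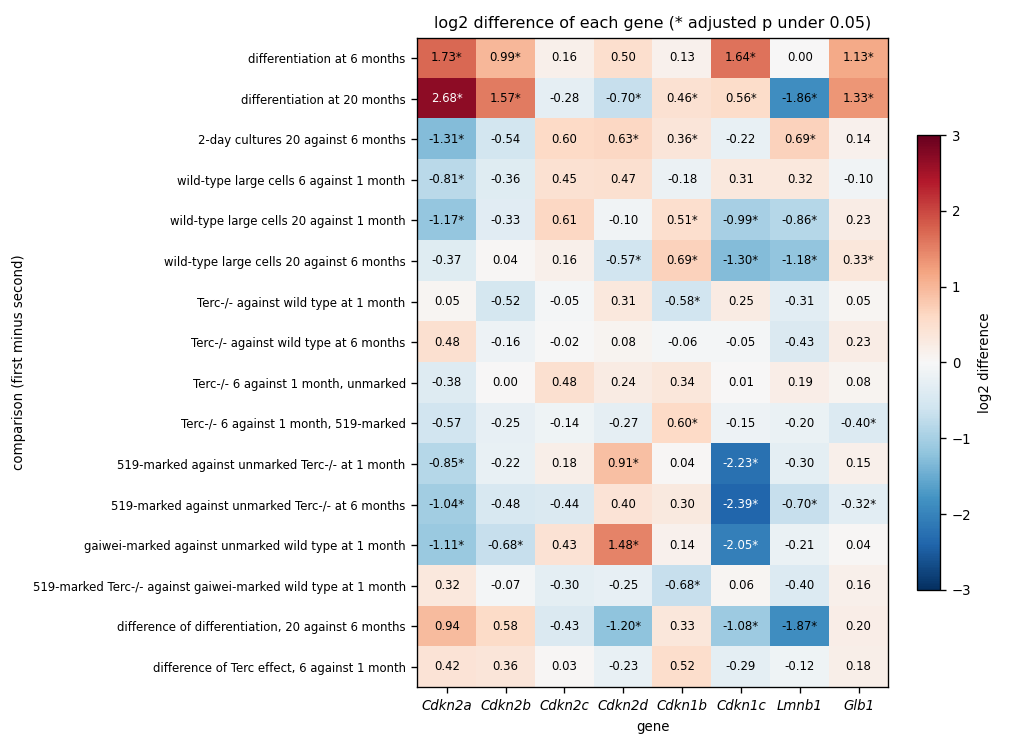
Log2 difference of each gene (columns) in each of the 16 comparisons (rows, first group minus second), from red (higher) to blue (lower); a star marks an adjusted p under 0.05. Cdkn2a ranges from 2.68 in large cells against 2 days at 20 months to -1.31 between the 2-day ages.

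The last comparisons set the marked libraries beside the unmarked ones. Cdkn1c was almost not detected in marked libraries, and Cdkn2a was lower in all 3 of them, while Cdkn2d was higher in both 1-month sets. Of 8 genes 1 rose and 2 fell in 519-marked 1-month Terc-/- cells (33.6% of all genes called), 0 rose and 4 fell at 6 months (28.2%), and 1 rose and 3 fell in gaiwei-marked wild type (46.5%). The osteoclast genes fell beside them, 10, 9 and 9 of 10, and the secreted factors of senescent cells rose in 13, 15 and 14 of 20 cases and fell in 1, 0 and 3. Which of the treatments, animals or batches the words stand for is not stated, so none of these can be told apart. The gaiwei comparison also sets libraries with the male pattern of Xist against those with the female pattern. Without scaling between libraries the median of all genes was -0.39, -0.26 and -0.49 in these comparisons. The members called were then 6 in each. The shares of all genes given above are those after scaling, so these counts of 6 cannot be read against them.

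Cdkn1c read 0.149, 0.0358 and 0.246 TPM in gaiwei-marked, 0.189, 0.283 and 0.0779 in 519-marked 1-month and 0.148, 0.0681 and 0.0898 TPM in 519-marked 6-month libraries. The lowest unmarked Terc-/- library read 4.27 TPM. The differences were -2.05 ± 0.19, -2.23 ± 0.19 and -2.39 ± 0.19, with adjusted p of 5.26e-09, 2.56e-09 and 1.27e-09. With a pseudocount of 0.1 they were -3.89, -3.92 and -4.52.

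Cdkn2a read 51.3, 42.3 and 52.3 TPM in gaiwei-marked libraries. It read 57.5, 68.8 and 63.2 TPM in 519-marked 1-month and 46.6, 40.6 and 58.2 TPM in 519-marked 6-month libraries. These values lay below every unmarked library of the same genotype and age. The differences were -1.11 ± 0.26 (adjusted p = 0.000917), -0.85 ± 0.26 (adjusted p = 0.012) and -1.04 ± 0.26 (adjusted p = 0.003). The 519-marked 1-month call was lost without unmarked replicate 3 or marked replicate 1 (adjusted p 0.051 to 0.0546). Cdkn2d, by contrast, read 25.5, 17.2 and 23.8 TPM in gaiwei-marked and 17.6, 19.5 and 19.9 TPM in 519-marked 1-month libraries, above every unmarked 1-month library of its genotype. It differed by 1.48 ± 0.21 (2.78-fold, adjusted p = 3.63e-06) and 0.91 ± 0.21 (1.88-fold, adjusted p = 0.00151), and by 0.40 ± 0.21 at 6 months, where it read 15.4 to 20.4 TPM (adjusted p = 0.171).

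After scaling Cdkn2b was called in gaiwei-marked cells, where it read 12.4 to 13.3 TPM (-0.68 ± 0.23, adjusted p = 0.0167). That call was lost without unmarked replicate 4 or marked replicate 3 (adjusted p = 0.106 and 0.0696). In 519-marked cells it read 10.2 to 14.8 TPM at 1 month and 10.3 to 13.5 TPM at 6 months, below every unmarked Terc-/- library of the same age. The differences, -0.22 ± 0.23 and -0.48 ± 0.23, were not called after scaling (adjusted p = 0.477 and 0.123) and were called on the values as deposited (-0.67 and -0.75, adjusted p = 0.00561 and 0.00285). The 6-month one was also called with one variance per group (adjusted p = 0.0298) and in a fit of only the groups compared (adjusted p = 0.0288). Lmnb1 was called after scaling at 6 months, from the values above to 8.61, 5.93 and 7.89 TPM (-0.70 ± 0.17, adjusted p = 0.00352). It read 6.51 to 13.1 TPM in gaiwei-marked and 6.87 to 8.60 TPM in 519-marked 1-month libraries, below every unmarked library of the same genotype and age. These differences were -0.21 ± 0.17 and -0.30 ± 0.17 after scaling, not called, and both -0.73 and called on the values as deposited (adjusted p = 0.0173 and 0.0239). Whether these effects differ between the sets was not tested.

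Glb1 read 85.4 to 88.6 TPM in gaiwei-marked, 95.7 to 106.0 in 519-marked 1-month and 76.8 to 95.2 TPM in 519-marked 6-month libraries. After scaling it fell only at 6 months (-0.32 ± 0.10, adjusted p = 0.0139), a call lost without unmarked replicate 2 or marked replicate 3 (adjusted p 0.0509 to 0.121). At 1 month its direction turns with the scaling. It was 0.15 ± 0.10 in Terc-/- and 0.04 ± 0.10 in wild-type cells after scaling, neither called, and -0.32 (adjusted p = 0.0434) and -0.52 (adjusted p = 0.00133) on the values as deposited.

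Cdkn1b and Cdkn2c were not called between marked and unmarked cells in the fit of all scaled libraries. At 6 months Cdkn1b differed by 0.30 ± 0.12 (adjusted p = 0.0507). It was called there without unmarked replicate 2 (0.40, adjusted p = 0.0206), under median-ratio scaling (adjusted p = 0.0347) and with one variance per group (adjusted p = 0.0326). Cdkn2c differed by -0.44 ± 0.23 at 6 months and was called on the values as deposited (-0.70, adjusted p = 0.0344). Cdkn1b read 15 to 16.3 TPM in gaiwei-marked, 9.10 to 11.1 in 519-marked 1-month and 16.5 to 18.3 TPM in 519-marked 6-month libraries. Between the 519-marked ages it was higher at 6 months by 0.60 ± 0.12 (adjusted p = 0.000619), while Glb1 was lower, at -0.40 ± 0.10 (adjusted p = 0.00475), a call not made on the values as deposited (adjusted p = 0.257). These were 1 gene up and 1 down of 8, where 23.9% of all genes were called. Of the proliferation markers 12 of 20 were lower and 0 higher there. Between 519-marked Terc-/- and gaiwei-marked wild type at 1 month, Cdkn1b was again the 1 gene called, and lower, by -0.68 ± 0.12 (adjusted p = 0.000799), where 3.45% of all genes were called. These libraries share the male pattern of Xist, but their genotype and their title word cannot be told apart. On the values as deposited the difference was not called (adjusted p = 0.0683). Cdkn2c read 4.92 to 12.8 TPM over the 9 marked libraries, and in gaiwei-marked cells it was called higher without replicate 2 (0.79, adjusted p = 0.00339).

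Across groups the order of the levels differed from gene to gene. The Cdkn2a means ran from 159.0 TPM in 1-month large cells of both genotypes to 11.9 TPM in 20-month 2-day cultures, 13.4-fold. In that order, 1-month Terc-/- and wild type, 1-month wild type and 6-month Terc-/-, 6-month and 20-month wild type, 20-month wild type and 519-marked 1-month, and gaiwei-marked and 519-marked 6-month cells overlapped. Cdkn1c had the widest range, 50.2-fold between group means, and Cdkn2d the narrowest, 2.02-fold, with every neighbour in its order overlapping. Cdkn2b means differed by 3.54-fold, Cdkn2c by 2.96-fold, Cdkn1b by 3.33-fold, Lmnb1 by 5.66-fold and Glb1 by 2.60-fold. By mean level over the 30 libraries Glb1 (107.0 TPM) lay at the 90.2th percentile of the genes tested, Cdkn2a (80.0 TPM) at the 86.8th and Cdkn1c at the 11.5th.

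The genes whose log2 levels followed each member most closely were ranked by Pearson correlation over the 30 libraries, which share groups and scaling, as a description. Lmnb1 was closest to Kif11 (0.933), Racgap1 (0.921), Bub1b (0.920) and Kif23 (0.915), all genes of mitosis or cytokinesis. Glb1 was closest to Hexa (0.962), the alpha subunit of lysosomal hexosaminidase. Cdkn2a was closest to Dap (0.908) and Cox7a1 (0.904), Cdkn2b to Sat1 (0.875) and the imprinted RNA Meg3 (0.871), and Cdkn2d to Cdkn2aipnl (0.949). Cdkn1c was closest to Mad1l1 (0.952), Cdkn1b to Pdia4 (0.774) and Cdkn2c, the least matched, to Rbm10 (0.639).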

How the data were processed

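RNA of 30 mouse libraries in 10 groups of 3 was selected on oligo(dT) beads, per the labels' protocols. The authors deposited 5 tables of 45706 genes. The deposited values were taken as TPM because all columns had the same sum, the one that defines TPM; the file headers name no unit. Per the submitters' processing notes HTSeq and mm10 were used; versions, the aligner and the use of strand are not given in the sources used here. TPM keep no depth, so depth and the precision it gives were unknown. Symbols came from GENCODE M21 for 45143 identifiers and were missing for 563. No pair of libraries was identical.

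Scaling between libraries used a trimmed mean without weights, leaving out 30% by log ratio and 5% by level. The 12614 genes averaging 1 TPM or more were kept, and log2(scaled TPM + 1) was fitted with limma 3.58.1 in R 4.3.3. The fit had 10 group means, an intensity trend and robust variances. P-values were adjusted by Benjamini-Hochberg over all genes and called under 0.05. The fit was also run on simulated data in which each gene had the same spread in all groups. That run cannot show how the fit behaves where groups differ in spread. Tables were read with pandas 2.3.3 and drawn with matplotlib 3.10.9.

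The 14 differences between groups and 2 differences of differences covered stage, age, genotype and title word. Alternatives were the values as deposited, a pseudocount of 0.1, one variance per group, only the groups compared, median-ratio scaling, all genes without the filter, a block for the replicate number, and each library left out. Members are named with their values, and a few genes of each list. The members and lists were chosen with earlier results of these data known. The 4 most similar genes per member were ranked by Pearson correlation.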

Additional observations from a re-analysis of the deposited data

Results flagged for a closer look

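For 3 of the 8 genes the change from 2 days to large cells differed between 20 and 6 months in the test of that difference, where 25.0% of all genes were called. Lmnb1 differed by -1.87 on the log2 scale, Cdkn2d by -1.20 and Cdkn1c by -1.08 (20 months minus 6 months, limma, 3 libraries a group). All 20 proliferation markers differed downward in the same test (median -2.20), and both B cell markers tested did so as well. The part of these genes in the 3 differences was not tested.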

How the results depend on the processing

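Of 43 differences called for single genes, 24 kept their call under every alternative tried for them and 19 lost it under at least 1. On the values as deposited the direction reversed for Glb1 in marked against unmarked cells at 1 month, to -0.32 in Terc-/- and -0.52 in wild type. Only the counts of the 8 genes called that moved most there, in proportion, are listed. They went from 4 to 2 between the 2-day ages. For Terc-/- against wild type they went from 1 to 2 at 1 month and from 0 to 2 at 6 months. They went from 2 to 1 between the 519-marked ages and from 3 to 6 for the 519 mark at 1 month. Between the marked genotypes the count went from 1 to 0, and for the difference of differentiation from 3 to 5. Smaller moves on the values as deposited were those of differentiation at 20 months and of 20-month wild-type large cells against both other ages. The gaiwei mark and the 519 mark at 6 months had smaller moves there too. The median difference of all genes, within 0.03 of 0 after scaling, was there -0.36 and -0.11 in the differentiation comparisons at 6 and 20 months and 0.24 in their difference. It was -0.16 and 0.27 for 6-month large cells against 1 month and for 20 months against them, 0.13 and 0.17 for the Terc comparison at 6 months and its difference from 1 month, and 0.14 between the 519-marked ages. The shares of all genes given in the Results are those after scaling, so the counts on the values as deposited cannot be read against them. The cause of these moves was not tested.

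The 1 call between 6 and 1 month in wild-type cells fell to 0 under a pseudocount of 0.1, one variance per group, median-ratio scaling, the replicate block, no filter and only the groups compared. It was also 0 when only these groups were compared without 6-month replicate 2. Between 20 and 6 months the 5 calls became 1 with one variance per group, 0 with only the groups compared and 3 with only those groups and without replicate 2. That last setting, chosen after seeing the data, gave 1 call for Terc-/- at 6 months (0 before) and 5 for the difference of differentiation (3 before). Leaving out 1 library at a time gave 1 to 3 calls between the 2-day ages, 0 to 2 for 6 against 1 month, 3 to 6 for 20 against 6 months, 0 to 2 for Terc-/- at 6 months, 0 to 1 between unmarked Terc-/- ages, 3 to 5 for the difference of differentiation and 0 to 1 for the difference of the Terc effect.

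Counts over all genes moved with the variance model. With one variance per group against the shared one, 2405 genes against 6276 were called for differentiation at 6 months, 7173 against 4565 at 20 months, 5076 against 2183 between the 2-day ages, 36 against 1208 for 6 against 1 month, 239 against 3483 for 20 against 6 months and 444 against 3636 for Terc-/- at 6 months. It called 6436 against 3010 between the 519-marked ages, 987 against 435 between the marked genotypes (282 on the values as deposited), 1663 against 3153 for the difference of differentiation and 37 against 451 for the difference of the Terc effect. With only the groups compared the first 6 counts were 1905, 6817, 4654, 26, 164 and 96, the 20 against 1 month count was 1848 against 2796, that between unmarked Terc-/- ages 153 against 502, that between 519-marked ages 5713, and those of the differences 2008 and 60. Without 6-month wild-type replicate 1 the counts rose to 4336 for 6 against 1 month and 6376 for 20 against 6 months, and without replicate 2 they were 738 and 2060. Over all libraries left out in turn the counts reached as low as 1263 between the 2-day ages, 573 for 6 against 1 month, 1727 between the 519-marked ages, 225 between unmarked Terc-/- ages, 189 between the marked genotypes and 269 for the difference of the Terc effect, whose highest was 1633; the difference of differentiation reached 5168 and the unmarked Terc-/- ages 781.

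Over 33 same-numbered pairs the correlations of deviations ran from -0.60 to 0.33, and 8 were over 0.1. In no comparison with 3 pairs were all over 0.1. Both pairs were over it between unmarked Terc-/- ages (0.33 and 0.17) and between gaiwei-marked and unmarked wild type (0.25 and 0.23). With 3 libraries a group these correlations cannot decide whether replicate numbers pair the libraries. With the replicate block 1 gene was called for Terc-/- at 6 months, Lmnb1 at -0.43 (adjusted p = 0.0391), against 0 without it. Depth was unknown, which limits Cdkn1c in marked libraries most.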

Other observations

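Platelet factor Pf4 was much higher in marked than in unmarked large-cell libraries, by 4.68 in gaiwei-marked wild type and by 4.79 and 2.02 in 519-marked Terc-/- cells of 1 and 6 months (log2, limma, all called). Its means were 12400, 8790 and 14000 TPM in these groups against 743.0, 444.0 and 4370 TPM. Itga2b, another megakaryocyte gene, stayed under 1 TPM on average in all 6 groups and was not called. Macrophage markers were higher in 5 of 8 cases in both 1-month sets and lower in 0, and higher in 3 and lower in 2 at 6 months. Their part in the differences of Cdkn2a, Cdkn2d and Cdkn1c was not tested.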
